A study of Mus musculus with 13 samples.

Results

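The circadian clock genes described here are 10 genes of the mouse liver clock, Arntl, Npas2, Clock, Nr1d1, Nr1d2, Per1, Per2, Per3, Dbp and Tef, out of 18193 genes measured on 13 Affymetrix arrays. They were chosen by name after earlier results of these data were known. Each was read from the probe set with the highest mean over all arrays, so the mean level was used to choose the probe set. The genes were proposed for the way their levels rise and fall together, so their agreement is given as a description without a test. All animals were B6/129 mice. The controls were wild type livers, 2 at 11 months (control_liver_11M) and 3 at 14 months (control_liver_14M). The tumours came from mir-122 knockout mice, 3 at 11 months (KO_tumor_11M) and 5 at 14 months (KO_tumor_14M). Knockout and tumour cannot be told apart, since every knockout sample is a tumour and every control is wild type. The sources used here give neither the hour of day at which each liver was taken nor the sex or feeding state of the mice. The titles of KO_tumor_14M replicates 1 and 2 and of control_liver_14M replicate 3 carry no mouse number, so whether each tumour came from a mouse of its own is not known. P-values rest on the spread from sample to sample, part of which may be technical.

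The clock of liver cells is a loop of transcription. ARNTL (also called BMAL1) pairs with CLOCK or NPAS2, binds E-box sequences and turns on the Per and Cry genes, Nr1d1, Nr1d2, Dbp and Tef. PER and CRY proteins then block that pair, while NR1D1 and NR1D2 (REV-ERB alpha and beta) silence Arntl, Npas2 and Clock through RORE sequences, so that RNA of Dbp and RNA of Arntl peak at opposite times of day. DBP and TEF are transcription factors that bind D-box sequences in output genes and in the Per genes.

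The promoter windows below show these sequences in the genes whose levels follow, in capitals. Windows run from 250 bases before to 50 bases after a start site of RefSeq, build GRCm38.p6, and positions count from the start site at 0. Of the 10 members, 9 had a window. The search covered both strands, and no pair of the motifs found in a window overlapped. The E-box was CACGTG. A close relative, the E-prime-box, was CACGTT, which in a window can also stand in its reverse complement. The D-box was TTATGTAA or, in a second form, TTACGTAA. The RORE was searched by its usual consensus. Arntl, at chr7:113207261-113207560 on the plus strand, is shown for the RORE through which REV-ERB proteins act. Nr1d1, at chr11:98775328-98775627 on the minus strand, and Tef, at chr15:81802423-81802722 on the plus strand, are shown for sites of the ARNTL type. Per3, at chr4:151044616-151044915 on the minus strand, is shown for sites of the DBP type.
Arntl: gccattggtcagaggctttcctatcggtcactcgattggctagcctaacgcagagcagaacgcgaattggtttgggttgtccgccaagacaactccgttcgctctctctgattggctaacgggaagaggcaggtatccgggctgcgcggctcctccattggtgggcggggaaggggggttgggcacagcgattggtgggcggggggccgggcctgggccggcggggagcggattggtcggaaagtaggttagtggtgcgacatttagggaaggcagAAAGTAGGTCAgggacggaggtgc
Nr1d1: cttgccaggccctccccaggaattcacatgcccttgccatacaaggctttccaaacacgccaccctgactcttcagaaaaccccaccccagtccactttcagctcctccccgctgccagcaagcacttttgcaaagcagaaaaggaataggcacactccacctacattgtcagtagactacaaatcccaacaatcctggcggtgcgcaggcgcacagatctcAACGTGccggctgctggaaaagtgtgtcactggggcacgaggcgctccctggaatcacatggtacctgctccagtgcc
Tef: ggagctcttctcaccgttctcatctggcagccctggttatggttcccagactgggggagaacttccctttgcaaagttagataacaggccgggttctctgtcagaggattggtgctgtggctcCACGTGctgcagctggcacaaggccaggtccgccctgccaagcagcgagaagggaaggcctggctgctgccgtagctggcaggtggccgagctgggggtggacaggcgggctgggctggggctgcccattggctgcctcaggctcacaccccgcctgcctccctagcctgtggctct
Per3: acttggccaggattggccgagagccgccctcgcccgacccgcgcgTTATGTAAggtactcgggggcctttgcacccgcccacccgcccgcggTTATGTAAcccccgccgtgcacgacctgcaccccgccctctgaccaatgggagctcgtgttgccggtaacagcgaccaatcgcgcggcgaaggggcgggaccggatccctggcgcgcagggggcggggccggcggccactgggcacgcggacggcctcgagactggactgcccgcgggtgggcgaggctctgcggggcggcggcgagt
The RORE of Arntl starts 26 bases after the start site. The E-prime-box of Nr1d1 starts 28 bases before it, and the E-box of Tef 127 bases before it. Per3 has D-boxes 205 and 158 bases before its start site. Per1 has an E-box 166 bases before the start site of its window at chr11:69098699-69098998. Over all 32851 windows of 300.0 bases, 7.15% held the E-box, 4.685% the E-prime-box, 1.056% the D-box and 0.384% the RORE. A match describes the letters and does not show binding. The windows of Dbp, Npas2, Clock and Nr1d2 held none of these letters.

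Several arrays stood apart. On the second principal component of all probe sets (12.77% of the variance), KO_tumor_11M replicates 1 and 2 and KO_tumor_14M replicate 4 lay between -72.35 and -25.15. Every other array lay at 7.96 or above. On the first component (49.52%) these tumours lay between -17.82 and 1.54. Controls lay there between -79.31 and -64.49 and the other tumours between 67.73 and 92.15. Control_liver_11M replicate 1 and control_liver_14M replicate 3, labelled with different ages, were nearly identical, with 58 probe sets more than 2-fold apart against at least 485 in every other pair from the same kind of tissue. Hepatocyte markers were high on all arrays, with a mean log2 level of 12.80 to 13.26 in tumours and 13.17 to 13.49 in controls. Of 8 hepatocyte markers, 1 passed the test of tumours against controls with both ages weighted equally, described below: Asgr1, which was lower in tumours. Over all genes 20.1% passed that test, 10.3% higher and 9.81% lower, so 1 called marker in a list is not a result about cell content. Means of the macrophage list ran from 7.61 to 9.42 in tumours and 7.94 to 8.58 in controls, with 1 of 5 markers higher, and those of the stellate list from 6.89 to 8.44 and 6.47 to 7.29, with 2 of 5 higher and 1 lower. Endothelial means ran from 6.93 to 7.67 in tumours and 6.80 to 7.08 in controls, with 2 of 5 markers higher. Markers in each of these lists differed in both directions between tumours and controls. Log2 differences ran from -2.16 to 1.94 for macrophage, -0.88 to 3.14 for stellate and -1.13 to 2.24 for endothelial markers. A list mean thus joins markers that moved apart. Bile duct means ran from 4.92 to 6.37 and 5.03 to 5.59, and lymphocyte means from 5.29 to 5.98 and 5.28 to 5.56, with none of 4 and none of 5 measured markers past the test. Some of these means moved with clock genes. In tumours the macrophage mean had the order of Nr1d1 in 24 of 28 pairs, of Dbp and Nr1d2 in 22 and of Arntl in 7, and it was highest in KO_tumor_11M replicate 2 and KO_tumor_14M replicate 4, at 9.42 and 9.10, both high in Dbp. In controls it had the order of Nr1d1 in 0 of 10 pairs and of Dbp in 4. The hepatocyte mean had, over all arrays, the order of Nr1d1 in 64 of 78 pairs, of Per3 in 61, of Dbp in 59 and of Arntl in 22, and in controls that of Dbp in 5 of 10. In tumours it had the order of Nr1d2 and Per2 in 22 of 28 pairs, of Tef and Per1 in 21, of Dbp and Nr1d1 in 20 and of Arntl in 7. The stellate mean had in tumours the order of Tef in 6 of 28 pairs, of Dbp in 11 and of Arntl in 18, and in controls that of Tef in 7 of 10. The part of these cells in the results below was not tested. In bulk tissue fewer cells of a type and less RNA per cell cannot be told apart.

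The activators Arntl and Npas2 were high on the same arrays. Arntl stood at 5.56 and 7.39 in the 11-month controls and at 8.71, 5.55 and 5.37 in the 14-month controls, as log2 levels. In tumours it stood at 6.71, 5.89 and 8.40 at 11 months and at 8.30, 8.52, 8.40, 6.73 and 7.06 at 14 months. Both kinds of tissue thus held arrays with high and arrays with low Arntl, and the highest value of all belonged to a control, control_liver_14M replicate 1. Npas2, the partner of ARNTL that can stand in for CLOCK, stood at 5.001 and 4.83 in 11-month controls and at 7.14, 4.57 and 4.53 in 14-month controls. It stood at 5.72, 4.65 and 6.53 in 11-month tumours and at 6.85, 6.87, 6.05, 6.11 and 5.59 in 14-month tumours. Npas2 was again highest in control_liver_14M replicate 1, and on 5 of the 13 arrays it lay below 5.16, the median of all probe sets. Clock, which encodes the partner that varies least in liver, covered 7.66 to 8.67 in controls and 7.73 to 8.72 in tumours, a range of 2.09-fold over the 13 arrays against 10.1-fold for Arntl.

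The D-box binding factors Dbp and Tef ran the other way. Dbp stood at 10.84 and 8.98 in 11-month controls and at 5.66, 10.75 and 11.16 in 14-month controls. In tumours it stood at 9.31, 9.41 and 5.57 at 11 months and at 6.03, 5.44, 5.53, 8.89 and 8.47 at 14 months. The 5 lowest arrays were KO_tumor_11M replicate 3, KO_tumor_14M replicates 1, 2 and 3 and control_liver_14M replicate 1, which are the 5 arrays with the highest Arntl. No array lay between 6.03 and 8.47, and the whole range was 52.8-fold. Tef covered 8.20 to 10.16 in controls and 7.20 to 10.17 in tumours, with the lowest control again control_liver_14M replicate 1 and the lowest tumour KO_tumor_11M replicate 3.

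**Figure D1:**
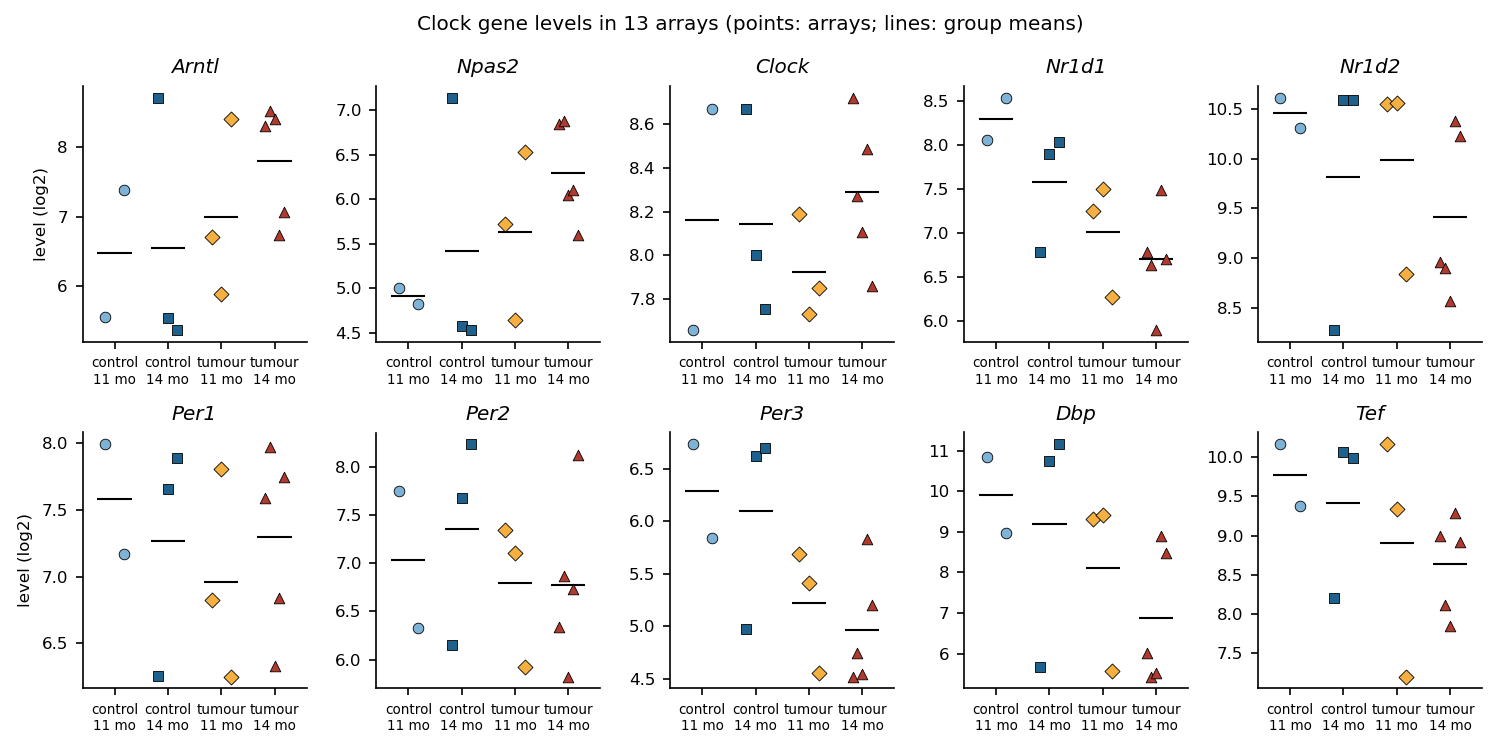
Log2 levels of the 10 clock genes (y axis, a scale of its own in each panel) in the 4 groups (x axis); each point is an array and each line a group mean. Values spread widely within groups, and in every panel tumours and controls overlap; Dbp spans 5.44 to 11.16.

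The repressors Nr1d1 and Nr1d2 followed Dbp. Nr1d2 stood at 10.62 and 10.32 in 11-month controls and at 8.27, 10.59 and 10.60 in 14-month controls. In tumours it stood at 10.55, 10.56 and 8.84 at 11 months and at 8.96, 8.90, 8.57, 10.39 and 10.23 at 14 months. The same 5 arrays that were lowest in Dbp were lowest in Nr1d2, with no array between 8.96 and 10.23. Nr1d1 stood at 8.06 and 8.54 in 11-month controls and at 6.79, 7.90 and 8.04 in 14-month controls. In tumours it stood at 7.25, 7.50 and 6.27 at 11 months and at 6.79, 6.63, 5.89, 7.48 and 6.70 at 14 months. All 8 tumours lay below the 4 controls other than control_liver_14M replicate 1, and 4 tumours lay below all 5 controls.

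The Per genes, whose proteins close the loop, were less alike. Per3 stood at 6.74 and 5.84 in 11-month controls and at 4.97, 6.63 and 6.70 in 14-month controls. It stood at 5.69, 5.41 and 4.56 in 11-month tumours and at 4.52, 4.75, 4.54, 5.83 and 5.21 in 14-month tumours. All 8 tumours were again below the controls other than control_liver_14M replicate 1, and on 5 of the 13 arrays it was below the probe set median, where an array measures small changes poorly. Per2 covered 6.15 to 8.24 in controls and 5.82 to 8.12 in tumours, with KO_tumor_14M replicate 5 the highest tumour. Per1 stood at 7.99 and 7.17 in 11-month controls, at 6.26, 7.66 and 7.89 in 14-month controls and at 6.83, 7.80 and 6.25 in 11-month tumours. In 14-month tumours Per1 stood at 7.59, 7.97, 6.33, 6.84 and 7.75. KO_tumor_14M replicates 1 and 2, low in Dbp, thus had high Per1. Replicate 2 lay inside and replicate 1 just under the range of 7.66 to 7.99 of the 3 controls with the highest Dbp. The titles of these tumours carry no mouse number, so whether they are separate cases is not known.

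Agreement of phase was counted over pairs of arrays: a pair is opposite where 1 gene is higher in the first array and the other gene in the second. Over all 13 arrays (78 pairs) the order by Nr1d2 was opposite to the order by Arntl in 72 pairs and the order by Dbp in 71, or 91.0%. Tef and Per2 were each opposite in 62 pairs, Nr1d1 in 60, Per3 in 59 and Per1 in 55. The median over all other genes was 40 pairs and the 95th percentile 55. Counts of pairs share arrays, and the sets of arrays are few, so these figures describe these libraries.

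Within the 8 tumours (28 pairs) Dbp was opposite to Arntl in 27 pairs, Nr1d2 in 25, Tef in 24 and Nr1d1 in 23. Per2 and Per3 were opposite in 19 and Per1 in 16, beside a median of 14 over all genes. In tumours Dbp, the REV-ERB genes and Tef thus lay above the 95th percentile of all genes, 22 pairs, and Per1 close to the median gene. The 3 tumours that stood apart were also the 3 with the highest Dbp, so these counts include pairs between them and the rest. Within the 5 controls (10 pairs) Dbp and Per2 were opposite to Arntl in 9 pairs, Nr1d2, Per1 and Per3 in 8, Tef in 7 and Nr1d1 in 5, beside a median of 5. The nearly identical controls are both among these 5, so pairs that hold them partly repeat one another. The 95th percentile of all genes in controls was 8 pairs. With so few pairs, 3.79% of all genes reached at least 9, 11.7% at least 8 and 24.9% at least 7. Control_liver_11M replicate 2 had the second highest Arntl of the controls and the highest Nr1d1. Whether tumours and controls differ in agreement was not tested.

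The same counts were made against Npas2. Dbp was opposite to Npas2 in 65 of 78 pairs over all arrays, in 22 of 28 in tumours and in 8 of 10 in controls. Nr1d2 was opposite in 64, 20 and 7 of these pairs, Nr1d1 in 58, 18 and 6, and Per3 in 59, 18 and 7. Tef and Per2 were each opposite in 56 over all arrays and Per1 in 53. Over all arrays these counts were below those against Arntl for every member but Per3, where both were 59, and in controls Nr1d1 was opposite to Npas2 in 1 pair more than to Arntl. Arntl and Npas2 were in the same order in 68 pairs over all arrays, 23 in tumours and 9 in controls. In controls other than control_liver_14M replicate 1, Npas2 lay at 4.53 to 5.001, below the probe set median. The order of those controls by Npas2 is thus measured poorly. Clock was in the order of Arntl in 55 pairs over all arrays but in 16 of 28 in tumours, close to the median gene.

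**Figure D2:**
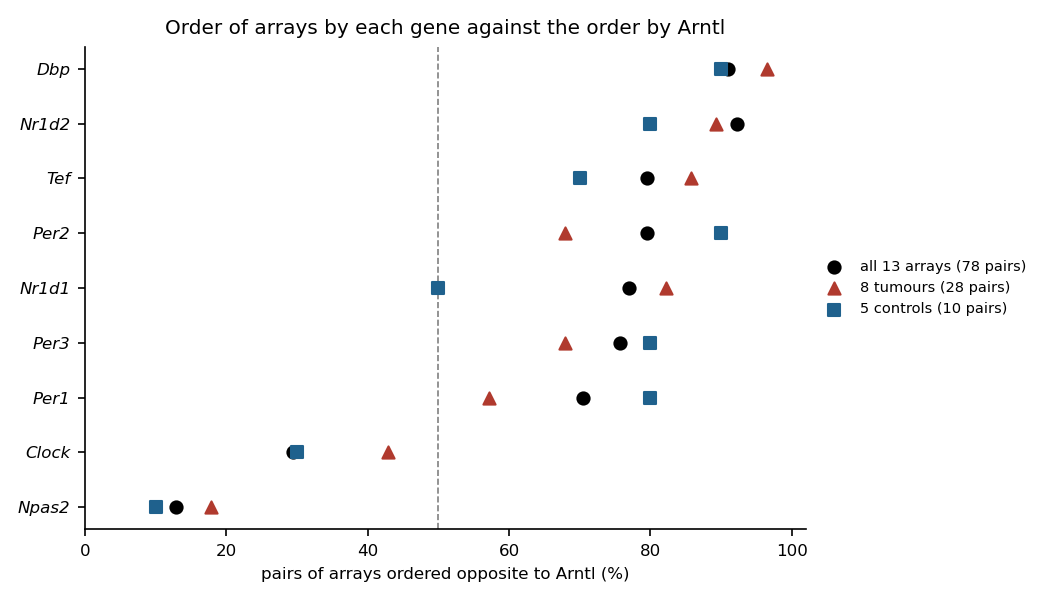
Share of pairs of arrays, in percent (x axis), that each gene (y axis) orders opposite to Arntl, over all arrays, the tumours and the controls; the dashed line marks 50%. Dbp and Nr1d2 lie at 80% or above in all 3 sets, while Per1 lies at 57.1% in tumours and 80% in controls and Nr1d1 at 82.1% and 50%. In controls 11.7% of all genes reach 80% or above.

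For Dbp the counts stayed close to these when arrays that stood apart were left out. Without KO_tumor_11M replicates 1 and 2 and KO_tumor_14M replicate 4, Dbp was opposite to Arntl in 39 of 45 pairs, and in 9 of 10 in the 5 tumours left. Among those 5 tumours Nr1d2 and Tef were opposite to Arntl in 7 of 10 pairs, Nr1d1, Per1 and Per2 in 6 and Per3 in 4. Without both nearly identical controls Dbp was opposite in 49 of 55 pairs and in 3 of 3 among controls. Among those controls Tef, Nr1d2, Per1, Per2 and Per3 were also opposite in 3 of 3 and Nr1d1 in 2 of 3. Without control_liver_14M replicate 1 Dbp was opposite in 62 of 66 pairs and in 5 of 6 among controls, while Nr1d1 was opposite in 1 of 6.

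**Figure D3:**
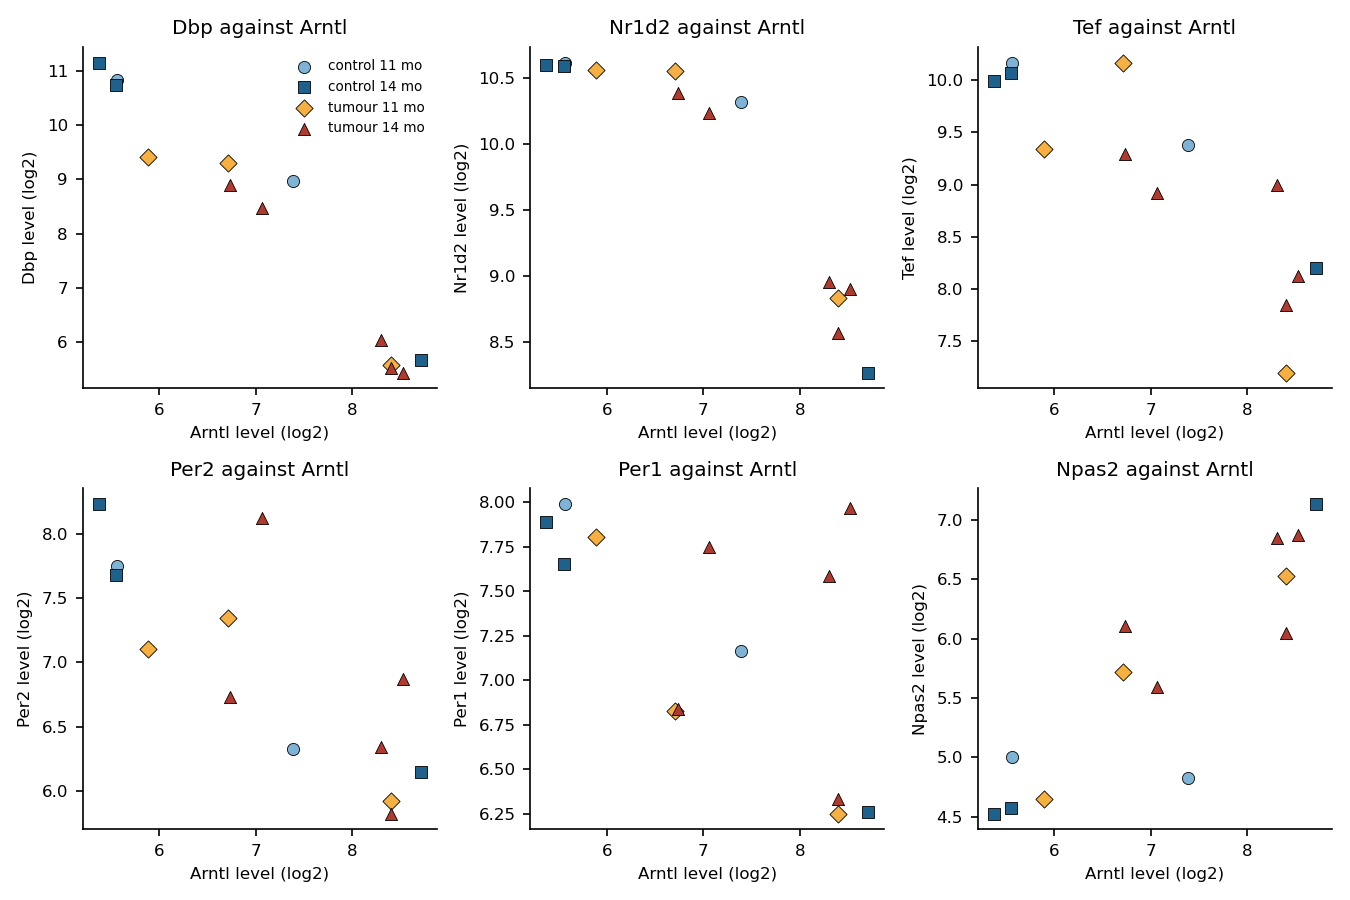
Log2 levels of Dbp, Nr1d2, Tef, Per2, Per1 and Npas2 (y axes) against the log2 level of Arntl (x axis); each point is 1 of 13 arrays, with colour and shape for the group. Dbp and Nr1d2 fall as Arntl rises and Npas2 rises with it, with tumours and controls along the same band; in the Per1 panel 2 tumours at 14 months, at Arntl 8.30 and 8.52, lie high, at 7.59 and 7.97.

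The genes that follow Dbp were also in order with one another. Dbp and Nr1d2 were in the same order in 71 of 78 pairs, Dbp and Tef in 67, Dbp and Nr1d1 in 67, Dbp and Per3 in 66 and Dbp and Per2 in 63. Dbp and Per1 were in the same order in 54 pairs, with 15 of 28 in tumours and 9 of 10 in controls. Set against each gene's own median over the 13 arrays, Dbp, Tef, Nr1d1, Nr1d2, Per1, Per2 and Per3, 7 genes, were all above it and Arntl, Npas2 and Clock below it in control_liver_11M replicate 1 and control_liver_14M replicates 2 and 3. Of these, control_liver_11M replicate 1 and control_liver_14M replicate 3 are the nearly identical arrays. In control_liver_14M replicate 1 all 7 were below and all 3 above. Among tumours KO_tumor_11M replicate 3 and KO_tumor_14M replicate 3 had all 7 below, with 2 of the 3 activators above, and KO_tumor_14M replicate 1 had 6 below and 0 above, with all 3 activators above. KO_tumor_11M replicate 2 had 6 of the 7 above and all 3 activators below. KO_tumor_14M replicate 2 had 5 below and 1 above, with all 3 activators above. The remaining arrays were mixed. KO_tumor_14M replicate 5 had 5 of the 7 below, but also 2 activators below and 0 above. KO_tumor_14M replicate 4 had 3 above and 2 below, with 2 activators above. Control_liver_11M replicate 2 had 4 above and 2 below, with 2 activators above. KO_tumor_11M replicate 1 had 5 above, with 1 activator above and 1 below.

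Per1 is also induced within minutes to hours by glucocorticoids and by other signals, apart from the clock, so lists for both were read beside it. The mean of 5 glucocorticoid-induced genes was 9.997 in KO_tumor_11M replicate 2 and 10.22, 10.82 and 10.26 in KO_tumor_14M replicates 1, 2 and 5, and 8.995 to 9.41 in the other 4 tumours. Those 4 tumours with the higher means were the 4 with the highest Per1. Of the listed genes Fkbp5, Tsc22d3 and Zbtb16 were each higher in these tumours than in all others, but Sgk1 and Tat were not. Sgk1 stood at 9.58 in KO_tumor_11M replicate 2 and at 10.999 in KO_tumor_11M replicate 1. Per1 and the mean of the 5 genes were in the same order in 22 of 28 pairs of tumours and 8 of 10 of controls. Dbp and this mean were in the same order in 11 and 7. This reading was chosen after the values were seen, and the part of glucocorticoid signalling in Per1 was not tested. KO_tumor_14M replicates 1 and 2 carry no mouse number, so whether they are separate cases is not known. The mean of 7 immediate early genes was 10.99 and 10.88 in the nearly identical controls, 6.54 to 6.89 in the other controls and 7.01 to 9.39 in tumours. Per1 and this mean were in the same order in 55 of 78 pairs over all arrays, 18 of 28 in tumours and 8 of 10 in controls. Control_liver_14M replicate 2, with the lowest mean, had a Per1 level of 7.66. The part of these genes' signals was not tested.

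**Figure D4:**
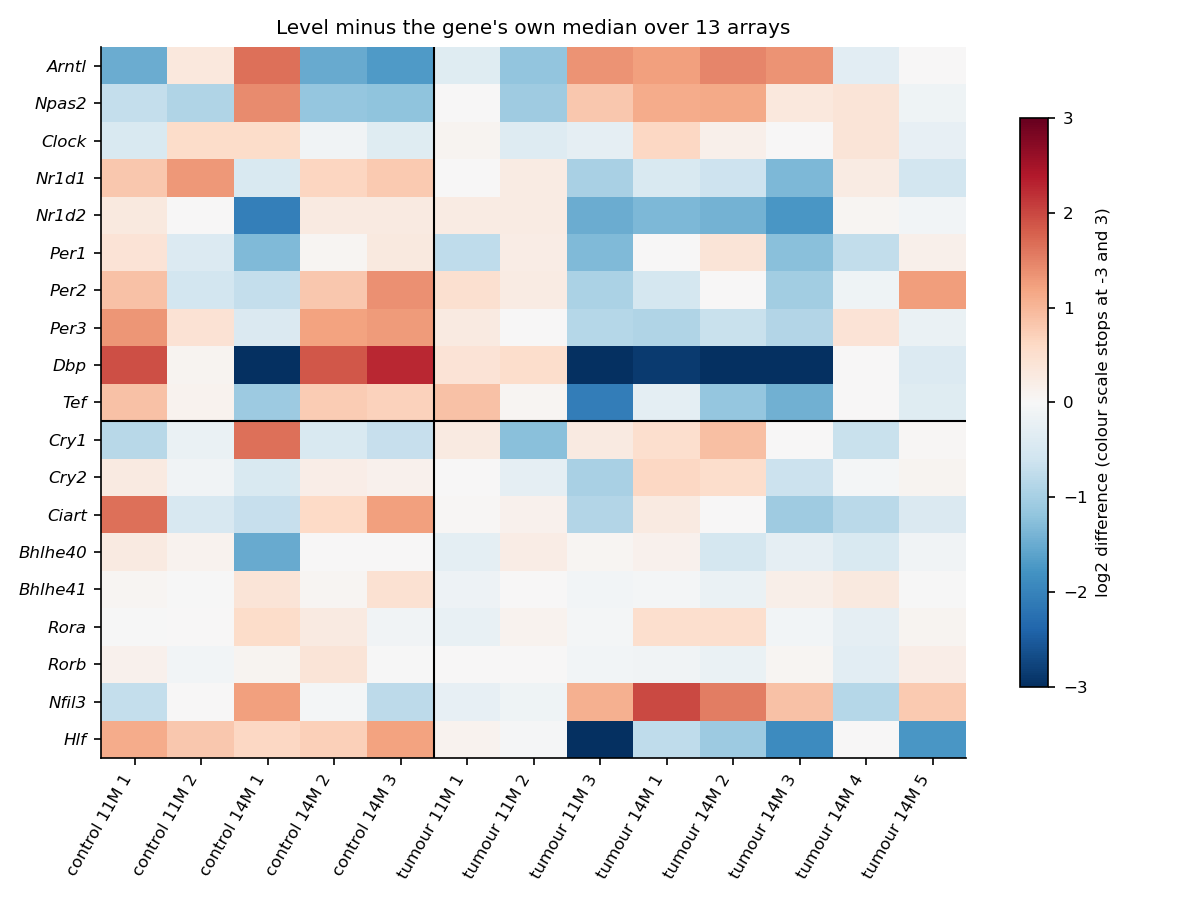
Level of each clock gene minus its own median over the 13 arrays (colour, log2, stopping at -3 and 3) by array (x axis) for the members and, under the horizontal line, other genes of the clock loop; the vertical line parts controls from tumours. Control_liver_14M replicate 1 and the tumours KO_tumor_11M replicate 3 and KO_tumor_14M replicates 1, 2 and 3 show high Arntl with low Dbp and Nr1d2.

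Arrays within a group differed far more in these genes than in most. The median SD of the 10 members was 0.88 over controls and 0.75 over tumours, against 0.17 and 0.25 over all genes. All 10 members lay above the 90th percentile of SD in controls and 7 in tumours. Spread within groups of this size is what the comparison of tumours with controls was set against.

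With both ages weighted equally, 1 of 10 members passed the test of tumours against controls (limma, Benjamini-Hochberg over 18193 genes, adjusted p under 0.05). Nr1d1 fell, from 7.87 ± 0.65 (SD, n = 5) in controls to 6.82 ± 0.57 (SD, n = 8) in tumours, a log2 difference of -1.08 (SE 0.32, 95% interval -1.77 to -0.39, limma adjusted p = 0.0331). Over all genes 20.1% passed, 10.3% higher and 9.81% lower, so 1 of 10 is close to the share of all genes and is not a result about the clock. The call was lost when any of 6 single arrays was left out: control_liver_11M replicate 1 (limma adjusted p = 0.0707) or 2 (0.125), control_liver_14M replicate 2 (0.0752) or 3 (0.0751), KO_tumor_11M replicate 3 (0.0698) or KO_tumor_14M replicate 2 (0.0516). Without both nearly identical controls the difference was -1.09 (adjusted p = 0.125).

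Per3 differed by -1.10 (limma adjusted p = 0.0527), and by -1.38 without control_liver_14M replicate 1 (adjusted p = 0.0159). Dbp had the largest difference, -2.06, with a 95% interval from -4.52 to 0.39 (limma adjusted p = 0.204), from 9.48 ± 2.30 (SD, n = 5) in controls to 7.33 ± 1.84 (SD, n = 8) in tumours. Differences of Tef, Nr1d2, Per2 and Per1 were -0.83, -0.45, -0.41 and -0.30, with limma adjusted p from 0.268 to 0.608. Arntl and Npas2 differed by 0.89 (limma adjusted p = 0.356) and 0.80 (0.248), and Clock by -0.05 (0.896). Leaving out 1 array moved differences not past the test by more than 1.5 times for several members: Arntl between 0.43 (without control_liver_11M replicate 1) and 1.43 (without control_liver_14M replicate 1), and Nr1d2 between -0.83 (without control_liver_14M replicate 1) and -0.16 (without KO_tumor_11M replicate 3). Tef moved to -0.40 without KO_tumor_11M replicate 3. Without control_liver_11M replicate 1, Per2 moved to -0.06 and Per1 to -0.09. Clock lay between -0.30 (without control_liver_11M replicate 1) and 0.21 (without replicate 2 of that group). Npas2 passed without control_liver_14M replicate 1 (1.23, adjusted p = 0.0392). Tef passed without the 3 tumours that stood apart (-1.76, adjusted p = 0.0174). The median difference of the members was -0.43, against -0.05 over all genes, and none of the 10 had levels in tumours that did not overlap with controls, as 11.3% of all genes had.

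**Figure D5:**
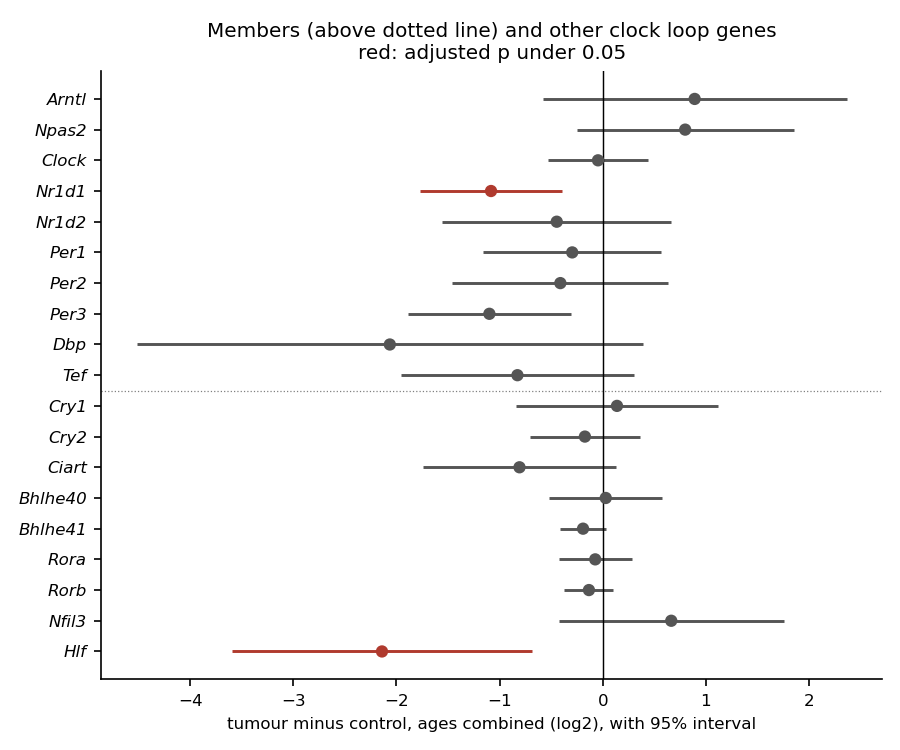
Log2 difference of tumours minus controls with both ages weighted equally (x axis), with 95% intervals from limma, for the 10 members and the other measured genes of the clock loop (y axis); red marks adjusted p under 0.05. Nr1d1 and Hlf are red, and the interval of Dbp, from -4.52 to 0.39, is the widest.

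Age by age, 0 of 10 members passed. At 11 months 1.92% of all genes passed, and 16.5% had an unadjusted p under 0.05. Among members 1 of 10 had one, Nr1d1, at a difference of -1.29 (limma adjusted p = 0.211). At 14 months 15.3% of all genes passed and 33.8% had an unadjusted p under 0.05, against 2 of 10 members, Per3 (-1.13, limma adjusted p = 0.107) and Nr1d1 (-0.87, 0.143). Per3 passed at 14 months without control_liver_14M replicate 1 (-1.69, limma adjusted p = 0.0431) and without the 3 tumours that stood apart (-1.34, 0.0419). Without the 3 tumours that stood apart, Nr1d1 passed at 11 months (-2.03, limma adjusted p = 0.0352), where a single tumour was left and was assumed to vary like the other groups, and at 14 months (-1.07, adjusted p = 0.0397). The difference between the ages passed for 0% of all genes (544 at an unadjusted p under 0.05) and for none of the members, at any p under 0.05 before adjustment. Between tumours of 14 and 11 months 0.0055% of all genes passed, between controls of the 2 ages 0%, and in both none of the members had an unadjusted p under 0.05.

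Other genes of the clock loop, 9 of a list of 10, were read next. Cry1, whose protein pairs with PER, and Nfil3, a repressor at D-boxes, were ordered with Arntl, in 64 and 63 of 78 pairs over all arrays and in 22 of 28 pairs each in tumours. Cry1 stood at 7.81 in control_liver_14M replicate 1 and at 5.33 to 5.96 in the other controls, and covered 4.91 to 7.07 in tumours. Nfil3 covered 7.20 to 9.21 in controls and 7.12 to 9.97 in tumours, with KO_tumor_14M replicate 1 the highest array. Ciart, a repressor of the CLOCK and ARNTL pair, covered 5.17 to 7.50 in controls and 4.78 to 6.12 in tumours. Cry2 was highest in KO_tumor_14M replicates 1 and 2, at 7.79 and 7.71, and covered 6.72 to 7.43 in controls. Rora, an activator at ROREs, covered 9.03 to 9.68 in controls and 8.86 to 9.65 in tumours. Bhlhe40, a repressor at E-boxes, stood at 8.69 in control_liver_14M replicate 1 and between 9.68 and 10.47 on all other arrays. Bhlhe41 was below the probe set median on all 13 arrays and Rorb on 10 of them.

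Hlf, the third D-box binding factor beside Dbp and Tef, was the 1 of these 9 to pass the test, a share near the 9.81% of all genes that were lower and not a result about the loop. Hlf stood at 8.67 and 8.36 in 11-month controls and at 8.18, 8.27 and 8.76 in 14-month controls. In tumours it stood at 7.65, 7.52 and 3.38 at 11 months and at 6.80, 6.47, 5.68, 7.55 and 5.80 at 14 months. All 8 tumours lay below all 5 controls, and control_liver_14M replicate 1, low in Dbp, had Hlf near the other controls. Hlf fell by 2.14 on the log2 scale (SE 0.66, 95% interval -3.59 to -0.69, limma adjusted p = 0.0422). The call was lost when any 1 of the 5 controls or any of KO_tumor_14M replicates 1, 2, 3 and 5 was left out (adjusted p from 0.0561 to 0.130), while the difference stayed between -2.51 and -1.44 over the arrays left out in turn. A second probe set of Hlf differed by -1.61. KO_tumor_11M replicate 3 lay below the probe set median, so its distance from the others is measured poorly.

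Kinases, ligases and cofactors of the clock, 19 of a list of 22, gave 4 genes higher and 3 lower, with 12 not past the test and a median difference of 0.10. The 7 of 19 called stand beside 20.1% over all genes. Csnk1e, a kinase that marks PER proteins for breakdown, rose from 6.09 ± 0.40 (SD, n = 5) in controls to 7.88 ± 0.28 (SD, n = 8) in tumours, by 1.75 (limma adjusted p = 0.000283). All 8 tumours, 7.57 to 8.29, lay above all 5 controls, 5.53 to 6.58, and the call held with each array left out in turn (adjusted p at most 0.00292). Gsk3b, a kinase of several clock proteins, rose by 0.62 (limma adjusted p = 0.00601) and Hdac3, the deacetylase through which REV-ERB proteins silence genes, by 0.60 (0.00691), and both held with each array left out. Without both nearly identical controls Gsk3b missed the threshold (0.63, adjusted p = 0.0517). Fbxw11, part of the ligase that takes up phosphorylated PER, rose by 0.31 (limma adjusted p = 0.0359). Leaving out KO_tumor_14M replicate 5, KO_tumor_11M replicate 2 or a single control, whichever of the 5, ended its call (adjusted p 0.0529 to 0.105). With probe sets averaged per gene Fbxw11 differed by 0.21 (limma adjusted p = 0.0622). Sirt1, a deacetylase, fell by 0.82 (limma adjusted p = 0.0323) and Cipc, an inhibitor of CLOCK, by 0.59 (0.0306). The call of Sirt1 was lost without either 11-month control, control_liver_14M replicate 2 or 3 or KO_tumor_14M replicate 1 or 2 (adjusted p from 0.0510 to 0.132), and that of Cipc without any 1 of the controls or KO_tumor_11M replicate 3 (0.0550 to 0.0973). Cipc also lost its call with probe sets averaged per gene (-0.37, limma adjusted p = 0.0868). Fbxl21, a subunit of a CRY ligase, fell by 0.35 (limma adjusted p = 0.0262), lay below the probe set median on every array and lost its call without control_liver_11M replicate 1 (0.136) or control_liver_14M replicate 3 (0.0600).

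Genes listed as outputs of the liver clock, 27 of a list of 32, gave 4 higher and 3 lower. The other 20 were not past the test, and the median difference was -0.54. Tsc22d3 of this list is also among the glucocorticoid-induced genes above. Whether the listed genes follow the clock in these samples was not tested. The share that passed, 7 of 27, stands beside 20.1% over all genes. Elovl3, an elongase of fatty acids, fell by 5.60 (limma adjusted p = 0.00182), Upp2, a uridine phosphorylase, by 3.47 (0.0110) and Gys2, the liver glycogen synthase, by 1.21 (0.0135). Elovl3 stood at 9.39 to 13.11 in controls, highest in control_liver_14M replicate 1, and at 3.47 to 7.09 in tumours, so all tumours lay below all controls. In 4 tumours Elovl3 was below the probe set median, at 3.47 to 4.265, so the size of its fall is measured poorly. Upp2 stood at 8.92 in that control, at 11.02 to 11.72 in the others and at 5.32 to 9.60 in tumours. Cdkn1a, an inhibitor of the cell cycle, rose by 2.07 (limma adjusted p = 0.00563), Tfrc, the transferrin receptor, by 1.45 (0.0317), and the chaperones Hspa8 and Hsp90aa1 by 0.70 (0.0380) and 0.66 (0.0120). Calls of Elovl3 and Cdkn1a held with each array left out. That of Upp2 was lost without control_liver_11M replicate 1 (adjusted p = 0.0532), that of Gys2 without replicate 1 or 2 of that group (0.0517 and 0.0543) and that of Hsp90aa1 without its replicate 2 (0.0706). Tfrc lost its call without either of these 2 controls, control_liver_14M replicate 1 or KO_tumor_11M replicate 3 (0.0509 to 0.130). Hspa8 kept its call without control_liver_14M replicate 3, KO_tumor_11M replicate 1 or KO_tumor_14M replicate 4 and lost it without each of the other 10 arrays (0.0525 to 0.158). With probe sets averaged per gene Hspa8 differed by 0.37 (limma adjusted p = 0.344).

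The genes most like Dbp were found over all 18192 other genes, as Pearson r over the 13 arrays after the mean of tumours or of controls was taken from each value. The arrays fall into high and low Dbp, so r mostly measures that split, and it is a ranking with no test. Among tumours the 3 with the highest Dbp were the 3 that stood apart, so r also takes in what sets those tumours apart. Nr1d2 ranked first (r = 0.980) and Per3 second (0.958), Tef was 7th (0.883), Nr1d1 40th (0.793), Per2 48th (0.786) and Per1 1198th (0.536). Arntl had the lowest r of all genes (-0.973), Npas2 the 15th lowest (-0.858) and Clock -0.532.

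Outside the members the highest r belonged to Glcci1 (0.909), a glucocorticoid-induced gene, Ces2b (0.895), a carboxylesterase, Dleu7 (0.892), 1700001L05Rik (0.884), Abcc3 (0.878), an exporter of bile acids and conjugates, and Syt1 (0.875), a synaptotagmin. Abcc3 covered 9.19 to 10.96 in controls and 8.86 to 10.78 in tumours, and Syt1 6.36 to 8.46 and 4.61 to 7.77. The 3 tumours that stood apart were the highest tumours in both. They stood at 10.18 to 10.78 in Abcc3 and 7.15 to 7.77 in Syt1, against at most 9.33 and 5.995 in the other tumours. KO_tumor_14M replicate 5, with Dbp at 8.47, had Abcc3 at 9.33. Whether these genes follow Dbp or set those tumours apart was not tested. Dleu7 never exceeded 3.06, far below the probe set median. Ces2b (3.52 to 4.74) and 1700001L05Rik (4.22 to 5.13) lay below that median of 5.16 in every tumour, and reached at most 5.45 and 5.55 in controls. The lowest r belonged to Rce1 (-0.905), a protease of prenylated proteins, Spsb3 (-0.899), Wnk3 (-0.888), Apol6 (-0.883), Pnrc1 (-0.873), a coactivator of nuclear receptors, and Shfl (-0.870), an interferon-induced inhibitor of frameshifting. Shfl was opposite to Dbp in 28 of 28 pairs of tumours and 8 of 10 of controls. Wnk3 and Apol6 stayed below 3.79 and 5.06, and so below that median.

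Other probe sets of the members gave the same order of arrays in part. The second probe set of Dbp kept the order of the chosen one in 74 of 78 pairs and that of Nr1d2 in 73. The second probe set of Arntl, with a mean of 5.09, kept it in 49 pairs and differed by -0.17 between tumours and controls against 0.99 for the chosen one, as differences of plain means. For Clock the chosen probe set differed by 0.00 and 2 others by -0.35 and -0.28. Per3 had 6 probe sets, of which the chosen one alone had a mean above that of the median probe set.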

How the data were processed

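Messenger RNA of 8 tumours and 5 control livers was measured on 13 one-colour Affymetrix arrays. The authors deposited log2 values from RMA in Partek software, per the submitters' processing notes. The sources used here give no version or settings. RMA scales arrays to a common distribution, so levels are relative, and array medians lay between 5.12 and 5.21. The number of arrays limits the precision.

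Of 45101 probe sets, 34945 name 1 gene, 932 several and 9160 none, and 64 are controls. Each of 18193 genes was read from the probe set with the highest mean, without a filter. Group means were fitted with lmFit and eBayes of limma 3.58.1 under R 4.3.3 (2.314 prior degrees of freedom), Benjamini-Hochberg adjustment ran over all genes, and the fit was tested on simulated data. Replicate numbers follow the order of samples and pair nothing. Named are all members, every measured gene of the other clock loop list, up to 4 largest rises and 4 largest falls past the threshold from the regulator and output lists, and the 6 non-members with the highest and 6 with the lowest r with Dbp. Members, lists, rules and alternatives were chosen with earlier results of these data known. The alternatives were other probe set rules, normalisations, spread models, array weights, arrays left out and no age term. Software was pandas 2.3.3 and numpy 2.4.6 under Python 3.11.15, with matplotlib 3.10.9 for plots.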

Additional observations from a re-analysis of the deposited data

Results flagged for a closer look

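Among 57 checks of 19 clock genes in controls, tumours and 14-month tumours, 5 found an array far from the rest of its group, where chance alone would give about 1 in 20. Among the 5 controls, control_liver_14M replicate 1 was far from the others in Npas2 (7.14 against 4.53 to 5.001), Nr1d2 (8.27 against 10.32 to 10.62), Cry1 (7.81 against 5.33 to 5.96) and Bhlhe40 (8.69 against 10.20 to 10.47). These 4 come from 1 array and are not independent. Among the 8 tumours, KO_tumor_11M replicate 3 was far from the others in Hlf (3.38 against 5.68 to 7.65). That level lay below the probe set median. On the second probe set of Hlf the same array stood at 5.45, close to the 5.705 to 6.91 of the other tumours.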

How the results depend on the processing

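With the ages combined, the 1 member past the threshold became 2 with array weights, with genes above the median level alone and with no age term, 3 without the 3 tumours that stood apart, 0 without both nearly identical controls and 0 with numbered arrays alone. Leaving out each array gave 0 to 3. At 11 months 0 became 1, and at 14 months 0 became 2, without the 3 tumours that stood apart; leaving out each array gave 0 to 1 at 14 months. Of the other loop genes 1 became 2 with probe sets averaged per gene, and 0 with KO_tumor_14M replicates 1 and 2 averaged, without both nearly identical controls and with numbered arrays alone (0 to 1 with each array left out). Regulators went from 7 to 2 without both nearly identical controls and 3 with numbered arrays alone (3 to 11 with each array left out). Output genes went from 7 to 12 with array weights, 4 without both nearly identical controls, 17 without the 3 tumours that stood apart, 3 with numbered arrays alone and 11 with no age term (3 to 12 with each array left out). The share of all genes past the threshold moved too, from 20.1% to 7.52% without both nearly identical controls, 9.67% with numbered arrays alone, 30.1% without the 3 tumours that stood apart, 26.6% with array weights and 26% with no age term, so the list counts are no changes of the lists alone. The cause was not tested; array removals also leave fewer samples. The share of pairs in which Dbp and Arntl were opposite lay between 86.7% and 91.0% over the 4 alternatives listed for it. Without control_liver_14M replicate 1, which is not among these, it was higher, at 62 of 66 pairs. The call of Nr1d1 kept its direction in all 25 alternatives, while differences not past the threshold changed sign in 5 of 25 for Clock and 1 of 25 each for Per1 and Per2. Levels near the median of all probe sets (Npas2, Per3) limit what small differences can show. No paired analysis was possible because replicate numbers come from sample order and mark no shared animal.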
